A study of Homo sapiens with 6 samples.

Results

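ATF4 and 9 genes known as its targets in the integrated stress response (ATF3, DDIT3, DDIT4, ASNS, PSAT1, PHGDH, TRIB3, CHAC1 and SESN2) were examined in MDA-MB-231 cells depleted of ZNF148. A row of the deposited table was taken where its gene name, split at commas, held 1 of these 10 symbols, whatever its values. The 10 symbols and the further gene lists below were chosen with earlier results of these data known. The table has 24108 rows, and each symbol was found in 1 of them. TRIB3 shares its row with RBCK1, so that value cannot be assigned to TRIB3 alone. RNA-seq was performed on 3 shCtr and 3 shZNF148 replicates of 1 cell line, which the labels call shControl and shZnf148. MDA-MB-231 is a long-used line of basal, triple-negative breast cancer. The shCtr cells carried a lentiviral hairpin against luciferase and the shZNF148 cells a lentiviral hairpin against the zinc finger transcription factor ZNF148. Both groups were transduced for 48 h and then selected for 24 h with 0.5 µg/mL puromycin. Bulk RNA was measured, in which fewer cells expressing a gene and less RNA per cell cannot be told apart. With 1 hairpin in each group, an effect of the hairpin or of its virus and an effect of ZNF148 loss cannot be told apart.

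The integrated stress response starts with kinases that phosphorylate the translation initiation factor eIF2 when amino acids, heme or protein folding capacity run short, or when double-stranded RNA is present. General translation then drops while translation of ATF4 mRNA goes up, because of short reading frames ahead of the ATF4 coding sequence. ATF4 is a basic leucine zipper factor that turns on genes for amino acid synthesis and uptake, redox balance and, under lasting stress, cell death. Since much of its control lies in translation and protein stability, an mRNA level of ATF4 does not measure ATF4 protein, which was not measured here.

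Values are FPKM, fragment numbers scaled for transcript length and library size, so levels of different genes are compared per length. Values of single samples are listed in the order of replicates 1, 2 and 3, and means are followed by ± the SD over the 3 replicates of a group. Tests used log2(FPKM + 1) on the 11777 rows that averaged 1 FPKM or more, in limma with Benjamini-Hochberg adjustment over these rows. For low genes, this scale makes fold changes smaller than they are. A gene is said to have passed at an adjusted p under 0.05. The study's further threshold is a change of more than 1.5-fold, or 0.585 on the log2 scale. Nothing in the labels says that replicates came from separate cultures, so p-values measure the spread between these samples, which may be technical.

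ZNF148 itself had 16.4% of its shCtr mean left in shZNF148 (log2 fold change -1.63, adjusted p = 0.0099), with its lowest value, 0.282 FPKM, in shZNF148 replicate 2. Without shCtr replicate 1 or 3 its adjusted p was 0.0603 and 0.0568. Read numbers are unknown, and the steps between low values put the depth of the samples at 0.806 to 1.13 times that of shCtr replicate 1. Of the markers of the line, VIM, CD44, LGALS1 and ANXA1 were between 316 and 2088 FPKM in every sample. ESR1 was listed at 0 throughout, and PGR, FOXA1 and CDH1 stayed at or below 0.491 FPKM. GATA3 and EPCAM, which had been put among the genes absent from the line, were at 7.53 to 11.1 FPKM. The immune and endothelial markers PTPRC, CD3E, PECAM1 and VWF were at or below 0.131 FPKM.

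Of the 10 members, ASNS and ATF3 fell in shZNF148 and the other 8 did not pass. Across all rows tested, 13.6% passed in either direction and 8.13% passed as lower. At the further threshold of 1.5-fold, ATF3 was the 1 member called, against 5.49% of all rows (3.66% called lower and 1.83% called higher). The log2 fold change was below 0 for 7 members and above 0 for 3, and with quantile normalization for 6 and 4, since the joined row of RBCK1 and TRIB3 then changed sign. The median of the members was -0.31, where the median of all rows was 0.01. For 4 members (ATF4, ATF3, ASNS and PSAT1) the 3 shZNF148 values lay below the 3 shCtr values, as they did for 21.0% of all rows. In either direction, 41.0% of all rows did not overlap. These counts rest on few samples. Without shCtr replicate 1, shCtr replicate 3 or shZNF148 replicate 1, limma passed 0 members in each case, while 3 had an unadjusted p under 0.05, and without shZNF148 replicate 2 it passed 3 members. Over all rows, 0.246%, 0.400% and 3.42% passed in the first 3 of these cases and 14.7% in the last. Without shCtr replicate 2 or shZNF148 replicate 3 a single member passed, where 2.65% and 9.22% of all rows did. The share of all rows at an unadjusted p under 0.05 was not counted, so counts at that level, here and below, cannot be set against it.

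**Figure D1:**
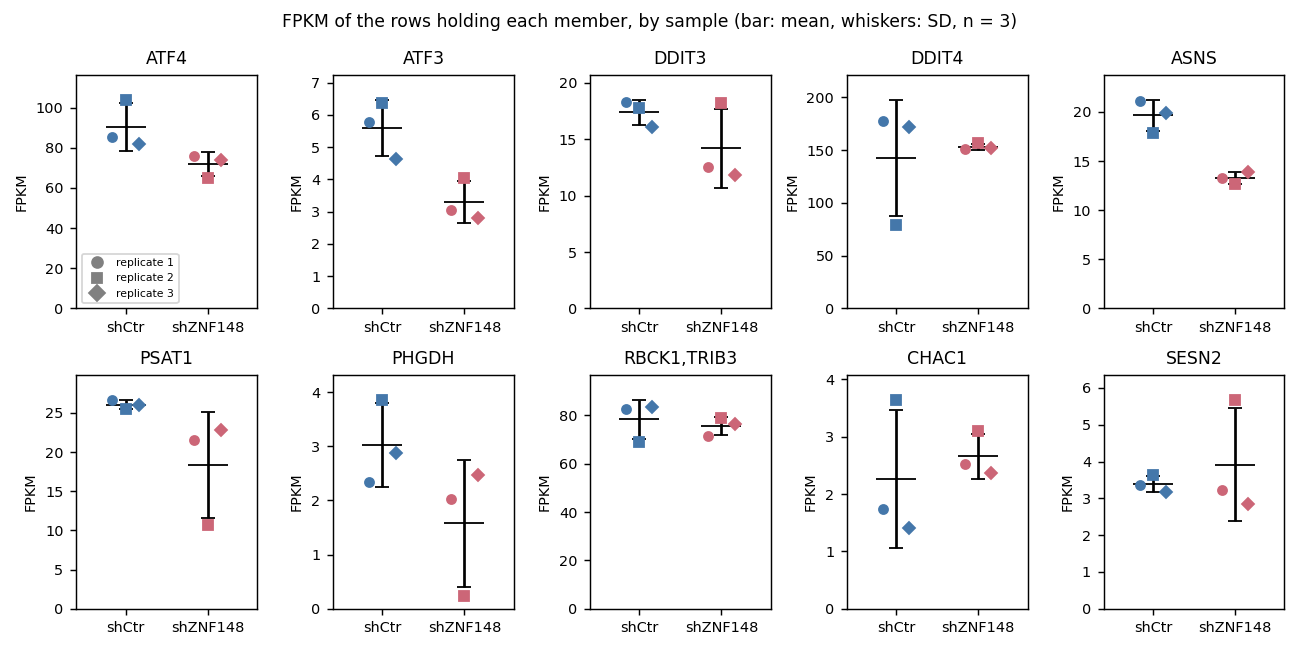
Expression of the 10 members in FPKM (vertical axes start at 0) in the 3 shCtr (blue) and 3 shZNF148 (red) replicates, with the group mean as a bar and the SD as whiskers; marker shape gives the replicate number. ATF4, ATF3, ASNS and PSAT1 separate into a higher shCtr and a lower shZNF148 group, as did 21.0% of all rows (41.0% in either direction). DDIT4 has 1 low shCtr value of 79.4 FPKM, and PSAT1 and PHGDH have 1 low shZNF148 value, of 10.7 and 0.241 FPKM.

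ATF4 was one of the more abundant members. Its FPKM was 85.2, 104 and 82.1 in shCtr, and 76.1, 65.1 and 74.2 in shZNF148. The groups did not overlap, and the highest value, in shCtr replicate 2, stood apart from the other shCtr values. The mean was 90.4 ± 11.9 FPKM for control cells and 71.8 ± 5.91 FPKM for depleted cells. The log2 fold change of ATF4 was -0.32 (95% interval -0.58 to -0.06, adjusted p = 0.0916), which did not pass. An exact two-sided permutation test of 3 samples against 3 cannot give a p below 0.1, and it gave 0.1 for each of the 4 members whose groups did not overlap.

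Among the members, ATF3 and DDIT3 are transcription factors that act below ATF4. ATF3, a basic leucine zipper factor induced early by many stresses, was 5.78, 6.38 and 4.65 FPKM in shCtr, and 3.05, 4.06 and 2.81 FPKM in shZNF148. Every shZNF148 value lay below every shCtr value, although the nearest of them, 4.06 and 4.65 FPKM, were close. The mean fell from 5.60 ± 0.877 to 3.30 ± 0.663 FPKM, and its log2 fold change was -0.62 with a standard error of 0.15 (adjusted p = 0.0441). This call was near the threshold. Without a filter on low values the adjusted p of ATF3 was 0.0707, and with 1 sample left out it was 0.144 (shCtr replicate 1), 0.113 (shCtr replicate 2), 0.0864 (shCtr replicate 3), 0.107 (shZNF148 replicate 1) and 0.0914 (shZNF148 replicate 3), the log2 fold change staying between -0.74 and -0.53.

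DDIT3 encodes CHOP, the factor that drives cell death genes when the response persists. Its FPKM was 18.3, 17.8 and 16.1 in shCtr, and 12.6, 18.2 and 11.8 in shZNF148. In shZNF148 replicates 1 and 3 it was below all shCtr values, whereas in replicate 2 it was among them. The log2 fold change of DDIT3 was -0.30 (95% interval -0.67 to 0.08, adjusted p = 0.236). Without shZNF148 replicate 2 it was -0.48 (adjusted p = 0.0204), and without shZNF148 replicate 3 it was -0.185. DDIT3 overlaps MARS1 in the RefSeq annotation, and whether reads were counted by strand is not given in the sources used here, so the values of the 2 genes may share reads.

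Among the enzymes of amino acid synthesis, ASNS passed. It encodes asparagine synthetase, which makes asparagine from aspartate and glutamine and is a classical readout of amino acid shortage. ASNS was 21.1, 17.9 and 19.9 FPKM in shCtr, and 13.2, 12.6 and 13.9 FPKM in shZNF148. The shZNF148 values were close to each other and lay below all shCtr values. The mean fell from 19.6 ± 1.62 to 13.3 ± 0.637 FPKM, or to 67.5% of its control level. The log2 fold change of ASNS was -0.53 (standard error 0.08, 95% interval -0.73 to -0.33, adjusted p = 0.0178), short of the study's 1.5-fold. Without shCtr replicate 2 it was -0.59 (adjusted p = 0.0387), past that threshold, and ASNS was then the member called in place of ATF3. Its adjusted p was 0.0834 without shCtr replicate 1, 0.0799 without shCtr replicate 3 and 0.0529 without shZNF148 replicate 1, with log2 fold changes between -0.59 and -0.48 over all samples left out.

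ATF4 binds composite elements that join a C/EBP site with an ATF site, written here as TGATGNAA and searched on both strands in the 250 bases before each RefSeq gene start (GRCh38.p14). The word was found for 3 of the 10 members, for 9 of 38 further targets with such a sequence, and for 3.89% of 27305 genes in all. The windows of these 3 are shown because they hold this word, which is given in capitals. In ASNS the second word in capitals is GTTACA, which lies 12 bases further on and is known as the second element of its nutrient-sensing unit (found for 6.80% of genes on either strand, for 2 of the members and for 0 of the 38 further targets).
ASNS: caTGATGAAActtcccgcacgcGTTACAgg
CHAC1: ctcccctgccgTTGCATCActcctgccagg
ATF3: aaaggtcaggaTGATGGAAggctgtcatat
The ASNS window lies at chr7:97872449-97872478 on the minus strand, with its first word 68 to 61 bases before the gene start. In CHAC1 (chr15:40953251-40953280, plus strand) the word reads in the reverse direction, 209 to 202 bases before the start. The ATF3 window is at chr1:212565205-212565234 on the plus strand, 191 to 184 bases before the start. Both members that passed, ASNS and ATF3, hold the word, and so does CHAC1, which did not pass. Whether holding the word goes with the change was not tested. Such matches describe the letters in these windows and not binding, which was not measured here.

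PHGDH and PSAT1 catalyse the first and second steps of serine synthesis from glycolysis. PSAT1 was 26.7, 25.5 and 26.0 FPKM in shCtr, and 21.6, 10.7 and 22.9 FPKM in shZNF148. The shCtr values were nearly alike, and all shZNF148 values were lower, with replicate 2 far below the others. PSAT1 had a log2 fold change of -0.55 with a 95% interval of -1.18 to 0.07 (adjusted p = 0.190). PHGDH was 2.34, 3.86 and 2.87 FPKM in shCtr, and 2.03, 0.241 and 2.46 FPKM in shZNF148. Its groups overlapped, since shZNF148 replicate 3 was above shCtr replicate 1. For PHGDH the log2 fold change was -0.76 (95% interval -1.69 to 0.17, adjusted p = 0.221). Without shZNF148 replicate 2 these values shrank to -0.22 for PSAT1 and -0.30 for PHGDH, more than 1.5 times smaller in each case.

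PSPH and SHMT2 are the next enzymes of this route, which leads on to glycine. PSPH, which removes the phosphate in the last step of serine synthesis, was 10.9 ± 0.845 against 13.6 ± 1.49 FPKM (shCtr against shZNF148). Its log2 fold change of 0.29 (adjusted p = 0.0956) had the opposite sign to those of PHGDH and PSAT1 and did not pass. SHMT2, the mitochondrial enzyme that splits serine into glycine and a one-carbon unit, was 64.9, 63.9 and 65.2 FPKM in shCtr, and 55.5, 42.8 and 58.5 FPKM in shZNF148. Again shZNF148 replicate 2 was the lowest, and the log2 fold change of -0.31 did not pass (adjusted p = 0.115) and was -0.18 without that replicate.

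DDIT4 and SESN2 both restrain the growth-promoting kinase complex mTORC1. DDIT4, also called REDD1, was the most abundant member, at 177, 79.4 and 172 FPKM in shCtr, and 151, 156 and 152 FPKM in shZNF148. The shZNF148 values were close together and lay inside the shCtr range, which was wide because of the low shCtr replicate 2. DDIT4 had a log2 fold change of 0.19 (95% interval -0.51 to 0.89, adjusted p = 0.684), and without shCtr replicate 2 it was -0.19 (adjusted p = 0.133). Without shCtr replicate 1 or 3 it was 0.39 and 0.36. SESN2, a leucine sensor, was 3.37, 3.62 and 3.17 FPKM in shCtr, and 3.22, 5.67 and 2.85 FPKM in shZNF148. Replicate 2 of shZNF148 was the highest of the 6 samples, and the remaining shZNF148 values were near or below the lower end of the shCtr range. For SESN2 the log2 fold change was 0.12 (95% interval -0.38 to 0.62, adjusted p = 0.715), and -0.12 without shZNF148 replicate 2, 0.21 without replicate 1 and 0.28 without replicate 3 of that group.

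TRIB3 encodes a pseudokinase that is induced by ATF4 and CHOP and feeds back on them. Its joined row with RBCK1 was 82.6, 69.0 and 83.4 FPKM in shCtr, and 71.5, 78.8 and 76.5 FPKM in shZNF148. All shZNF148 values lay inside the shCtr range, and the log2 fold change was -0.05 (95% interval -0.26 to 0.17, adjusted p = 0.747). CHAC1, an enzyme that degrades glutathione and a sensitive target of ATF4, was the least abundant member in shCtr. Its FPKM was 1.74, 3.64 and 1.41 in shCtr, and 2.52, 3.11 and 2.36 in shZNF148. Here shCtr replicate 2 was above all shZNF148 values and the other shCtr samples were below them. CHAC1 had a log2 fold change of 0.22 (95% interval -0.38 to 0.82, adjusted p = 0.571). It was 0.12 without shCtr replicate 1, 0.50 without shCtr replicate 2, 0.03 without shCtr replicate 3 and 0.13 without shZNF148 replicate 2.

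Samples of one group did not move together across members. Among the shZNF148 samples, replicate 2 held the lowest value of 4 members (ATF4, ASNS, PSAT1 and PHGDH) and the highest of the other 6. Among the shCtr samples, replicate 2 held the highest value of 5 members (ATF4, ATF3, PHGDH, CHAC1 and SESN2) and the lowest of 4 (DDIT4, ASNS, PSAT1 and the joined row of TRIB3). In shCtr, FPKM levels ran from 143 for DDIT4 and 90.4 for ATF4 through 26.1 for PSAT1, 19.6 for ASNS and 17.4 for DDIT3 to 5.60 for ATF3, 3.39 for SESN2, 3.02 for PHGDH and 2.27 for CHAC1. Neighbours in this order overlapped for DDIT4 with ATF4, ASNS with DDIT3, and among SESN2, PHGDH and CHAC1. RefSeq lists pseudogenes for ATF4, PSAT1 and ASNS, 4, 4 and 5 of them, with which reads could have been shared, and ASNS overlaps the readthrough gene CZ1P-ASNS.

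**Figure D2:**
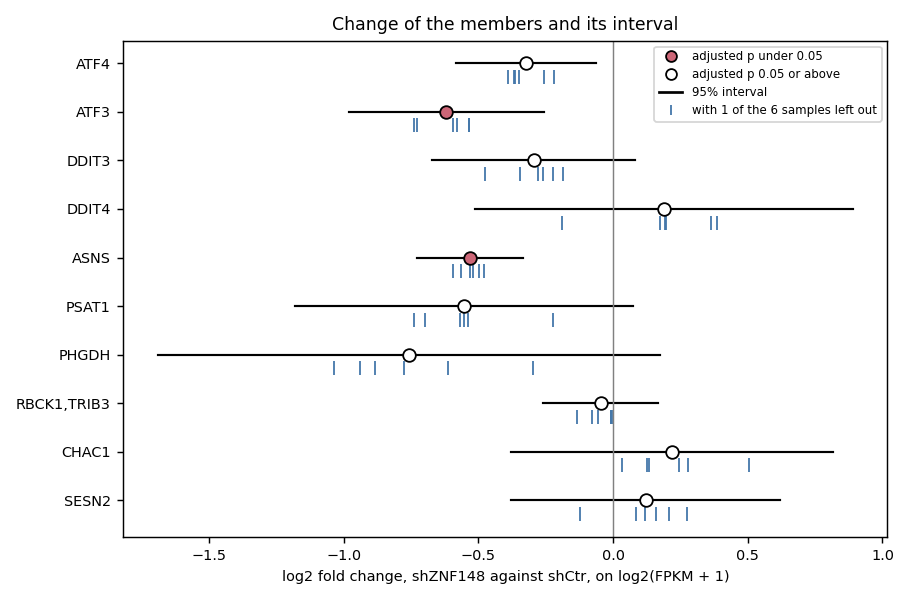
Log2 fold change of each member's row (circles; red where the adjusted p was under 0.05), its 95% interval (black line) and the 6 values with 1 sample left out (blue ticks). The interval of ASNS (-0.73 to -0.33) is the narrowest that passed, PHGDH has the widest interval (-1.69 to 0.17), and leaving out 1 sample changes the sign for DDIT4, SESN2 and the joined row of RBCK1 and TRIB3.

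Other genes of the response were listed by role. Of 50 further ATF4 targets, 45 could be tested, and 10 fell and 3 rose in shZNF148. That is 28.9% of those tested, where 13.6% of all rows passed. This list was chosen with earlier results of these data known, so the excess is no independent support for a change of these targets. Their median log2 fold change was -0.21, with 33 below and 12 above 0. Per shZNF148 replicate, the median difference from the shCtr mean was -0.20, -0.33 and -0.19 in replicates 1, 2 and 3, so all were below 0. The number that passed was 16 without shZNF148 replicate 2 and 2 without shZNF148 replicate 1, where 14.7% and 3.42% of all rows passed. It was 1 without shCtr replicate 2 and 0 in limma without shCtr replicate 1 or 3, where 18 and 20 had an unadjusted p under 0.05. Over all rows, 2.65%, 0.246% and 0.400% passed in these cases.

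Aminoacyl-tRNA synthetases, which charge tRNAs with amino acids, were lower in 11 of 12 cases. GARS1 fell by 0.37 on the log2 scale (110.7 ± 1.25 to 85.7 ± 7.30 FPKM; adjusted p = 0.0293) and SARS1 by 0.34 (adjusted p = 0.0280). LARS1 and AARS1 fell by 0.29 each (adjusted p = 0.0331 and 0.0405). WARS1, which charges tryptophan, was at 0.07 (adjusted p = 0.637). The median of the 12 was -0.28, and 33.3% of them passed, where 13.6% of all rows did. With quantile normalization 1 synthetase passed. None passed in limma without 1 of the shCtr replicates or without shZNF148 replicate 1, where 6, 6, 6 and 8 had an unadjusted p under 0.05. Over all rows, 0.246%, 2.65%, 0.400% and 3.42% passed in these cases.

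Among 10 tested enzymes of amino acid and one-carbon synthesis, PYCR1 was the 1 that passed. It makes proline in mitochondria and fell from 79.2 ± 0.595 to 59.8 ± 1.28 FPKM (-0.40 on the log2 scale with a standard error of 0.05, adjusted p = 0.0120). Its 3 values were 79.6, 79.5 and 78.5 FPKM in shCtr and 60.9, 58.4 and 60.2 FPKM in shZNF148, which left a wide gap between the groups. MTHFD2, a mitochondrial folate enzyme often used as a marker of ATF4 activity, was at -0.05 (20.6 ± 0.964 and 19.9 ± 1.16 FPKM, adjusted p = 0.659). CBS and ALDH1L2 were too low to be tested. Without shCtr replicate 1 or 3, PYCR1 did not pass and neither did any other enzyme in limma (2 and 3 at an unadjusted p under 0.05). Over all rows, 0.246% and 0.400% passed in these cases.

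Amino acid transporters went both ways, and 50.0% of the 8 tested passed, where 13.6% of all rows did. SLC7A5 and SLC3A2, which together form the leucine exchanger LAT1, rose (log2 fold changes 0.48 and 0.30, adjusted p = 0.0177 and 0.0370), and SLC38A2, which takes up small neutral amino acids, rose by 0.46 (adjusted p = 0.0439). SLC1A4, a carrier of serine and alanine, fell by 0.54 (3.27 ± 0.382 to 1.94 ± 0.314 FPKM; adjusted p = 0.0402). SLC7A11, the cystine carrier, was at 0.00, SLC1A5 at -0.00, SLC7A1 at -0.14 and SLC6A9 at 0.20, and none of these passed (adjusted p between 0.203 and 0.988). Without any 1 of the shCtr replicates, or without shZNF148 replicate 1, limma passed 0 of the 8, and 4 had an unadjusted p under 0.05. Over all rows, 0.246% to 3.42% passed in these cases. SLC1A4 did not pass without shZNF148 replicate 2 either. SLC38A2 and SLC1A4 did not pass without a filter on low values, nor SLC38A2 and SLC3A2 without the mean-variance trend.

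Stress effectors held the largest decrease of the listed targets. GDF15, a secreted cytokine induced by ATF4 and CHOP, was 3.15, 2.58 and 2.03 FPKM in shCtr, and 0.897, 0.604 and 0.838 FPKM in shZNF148. It fell by 1.00 on the log2 scale (standard error 0.16, adjusted p = 0.0177). GADD45A, a growth arrest gene, fell by 0.70 (69.5 ± 9.33 to 42.6 ± 7.28 FPKM; adjusted p = 0.0324). VLDLR, a lipoprotein receptor, fell by 0.58 (adjusted p = 0.0343, and 0.0525 without a filter on low values). The row that joins TNFRSF10B and TNFRSF10D fell by 0.45 (adjusted p = 0.0172), which cannot be assigned to either gene alone. Of the 15 tested, which include PPP1R15A, ATF5, CEBPB and CEBPG, 4 fell (26.7%). Of all rows, 8.13% passed as lower and 13.6% in either direction. PMAIP1, which encodes the BH3-only protein NOXA, had the highest log2 fold change of the 15, 0.42 (adjusted p = 0.186). FGF21 was listed at 0 in all samples, and STC2 and NUPR1 were too low to be tested. Without shZNF148 replicate 2, 8 fell. Without shZNF148 replicate 1, 1 did, and without any 1 of the shCtr replicates 0 passed in limma, where 6, 7 and 7 had an unadjusted p under 0.05. Over all rows, 14.7% and 3.42% passed without shZNF148 replicates 2 and 1, and 0.246% to 2.65% without 1 of the shCtr replicates.

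**Figure D3:**
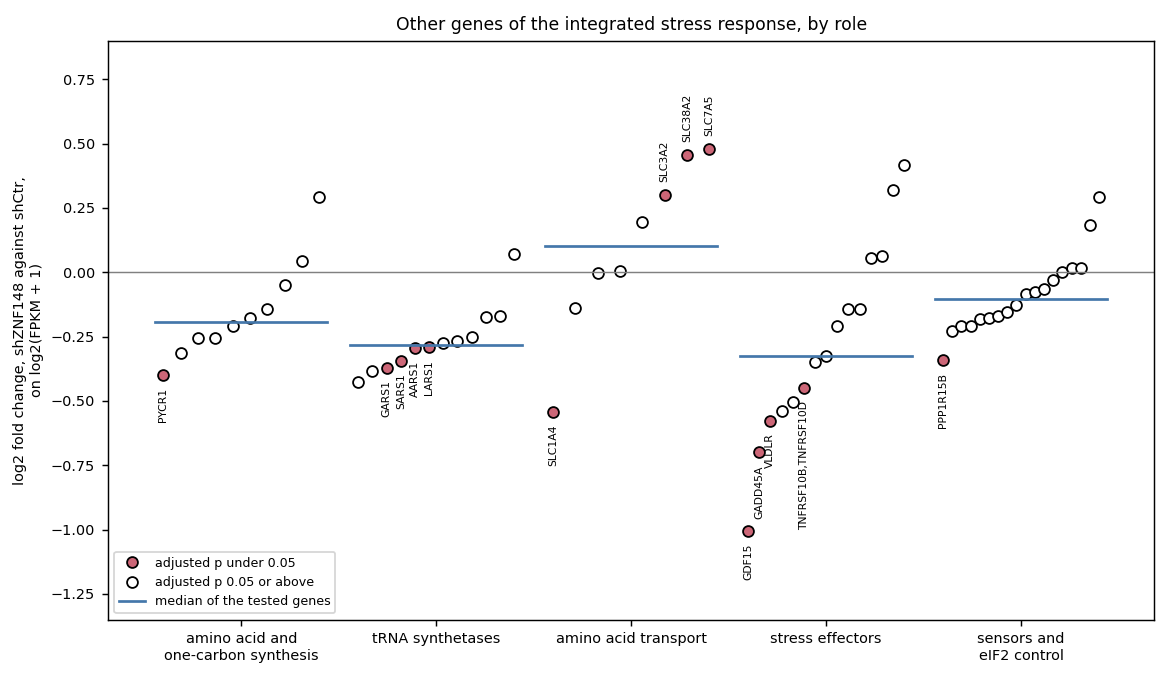
Log2 fold change of the tested genes of each role group (circles, ordered within a group; red and named where the adjusted p was under 0.05) with the group median (blue line). The synthetases lie below 0 with 1 exception, the transporters include 3 genes that rose, and GDF15 has the largest decrease, 1.00 on the log2 scale.

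Genes upstream of ATF4 were read next. Of the 4 eIF2 kinases, EIF2AK2 (PKR, the sensor of double-stranded RNA) was 19.3 ± 0.971 in shCtr against 23.9 ± 1.85 FPKM after depletion, a log2 fold change of 0.29 that did not pass (adjusted p = 0.0563) but did so with a minimum mean of 5 FPKM (0.0472). EIF2AK1 (HRI), EIF2AK3 (PERK) and EIF2AK4 (GCN2) were at -0.18, -0.03 and -0.15 (adjusted p = 0.124, 0.838 and 0.188). PPP1R15B, the constitutive partner of the phosphatase that reverses eIF2 phosphorylation, fell by 0.34 (19.5 ± 1.07 to 15.2 ± 1.1 FPKM, adjusted p = 0.0405). It was the 1 of 18 genes of eIF2 control to pass (5.56%, where 13.6% of all rows passed). Its stress-induced counterpart PPP1R15A was 74.9, 101 and 63.2 FPKM in shCtr, and 59.3, 86.6 and 59.7 FPKM in shZNF148, with replicate 2 the highest in both groups (adjusted p = 0.516). PPP1R15B did not pass without a filter on low values or with a term for replicate number (adjusted p = 0.0978). With any 1 sample left out it did not pass either, as limma then passed 0 genes of this group (2 to 4 at an unadjusted p under 0.05) except without shZNF148 replicate 2, when EIF2AK2 passed as higher. Over all rows, 0.246% to 14.7% passed with 1 sample left out.

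None of the 5 tested genes listed as transcription partners of ATF4 (CEBPB, CEBPG, CEBPD, ATF5 and JDP2) passed in limma, though CEBPB and ATF5 had an unadjusted p under 0.05. The more abundant row of CEBPB was 36.1 ± 1.75 in shCtr against 28.2 ± 3.50 FPKM after depletion (log2 fold change -0.35, adjusted p = 0.0587), and it passed without shZNF148 replicate 2 (-0.44, adjusted p = 0.0167) and when its 2 rows were summed (-0.34, adjusted p = 0.0466). CEBPG, the usual partner of ATF4 at amino acid response genes, was at 0.06 (adjusted p = 0.587). ATF5, in a row joined with MIR4751, was at 0.32 (adjusted p = 0.125). CEBPD and JDP2 were at -0.21 and -0.04 (adjusted p = 0.480 and 0.868).

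Genes related to the members were measured beside them, in a list that also holds PSPH and ATF5, described above. TRIB2, a pseudokinase like TRIB3, rose from 11.7 ± 2.42 to 30.1 ± 7.74 FPKM (1.28 on the log2 scale with a standard error of 0.21, adjusted p = 0.0189). CHAC2, which degrades glutathione as CHAC1 does, rose by 0.59 (5.48 ± 0.233 to 8.85 ± 1.64 FPKM; adjusted p = 0.0334). TRIB1 (-0.33), SESN1 (0.19) and SESN3 (0.40) did not pass (adjusted p = 0.135, 0.320 and 0.176; TRIB1 did without shZNF148 replicate 2, at -0.45 and 0.0443), and DDIT4L was below the filter. Without a filter on low values DDIT4L passed as lower (0.412 ± 0.0561 to 0.126 ± 0.0451 FPKM, log2 fold change -0.33, adjusted p = 0.0289). CHAC2 did not pass without a filter on low values or without shZNF148 replicate 1. Neither TRIB2 nor CHAC2 passed with a term for replicate number (adjusted p = 0.0604 and 0.0686) or without 1 of the shCtr replicates. In the latter cases 2, 4 and 4 of the 7 related genes tested were at an unadjusted p under 0.05. Over all rows, 0.246%, 2.65% and 0.400% passed in these cases. With all samples, 28.6% of the 7 passed, where 13.6% of all rows did.

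The other arms of the unfolded protein response, which share PERK's trigger in the endoplasmic reticulum, were read from 7 chaperone and signalling genes. HSP90B1, an abundant chaperone listed jointly with MIR3652, fell by 0.52 (870.7 ± 37.2 to 612 ± 82.7 FPKM; adjusted p = 0.0312). HSPA5, the central chaperone of this response, was 331.5 ± 5.46 in shCtr against 396 ± 53.4 FPKM after depletion (log2 fold change 0.25, adjusted p = 0.131). XBP1, SDF2L1 and PDIA4 were at 0.14, 0.19 and 0.03, and DNAJB9 and CALR at -0.04 and -0.05, without passing (adjusted p between 0.233 and 0.838). HSP90B1 did not pass with quantile normalization, without a filter on low values, or with a term for replicate number (adjusted p = 0.0648). Nor did it pass without 1 of the shCtr replicates or without shZNF148 replicate 1. With all samples, 14.3% of the 7 genes passed, near the 13.6% of all rows.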

How the data were processed

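RNA-seq values were analysed for 6 samples of MDA-MB-231 cells, 3 shCtr and 3 shZNF148, grouped by sample title. The authors deposited 1 table in FPKM. The submitters' processing notes name bcl2fastq 2.17.1.14, TopHat2 2.0.14, Cufflinks 2.2.1, Cuffnorm 2.2.1 and the builds hg18 and hg19, without roles, while the paper's methods name Salmon and DESeq2 on GRCh38. How samples were scaled is not given in the sources used here. Because the values are not counts, no count test was run, and the precision of low values is unknown.

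A mean of 1 FPKM or more was required, and log2(FPKM + 1) was fitted with limma 3.58.1 in R 4.3.3 (condition as the only term, eBayes with trend, Benjamini-Hochberg adjustment). Of several rows for a gene, the most abundant was taken. On 11777 simulated rows, 94.5% of 200 rows changed by 1.5 on the log2 scale were called, with 3 false calls. The members changed less (log2 fold changes from -0.76 to 0.22), and recovery of changes of that size was not simulated. The exact permutation test used scipy 1.17.1. Older symbols were matched through a list of aliases.

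The members and gene lists were chosen with earlier results of these data known. Genes named are all members, the wider genes that passed and the genes of role groups of at most 8. Some genes of longer lists (SHMT2, MTHFD2, WARS1, PMAIP1, PPP1R15A and the eIF2 kinases) were named after their values were seen. Promoter sequences are from RefSeq (GRCh38.p14); all 10 members matched. Alternatives were the filter, pseudocount, scaling, replicate block, variance model, summed rows and each sample left out.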

Additional observations from a re-analysis of the deposited data

How the results depend on the processing

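Over 16 alternatives, single members kept their direction and side of the adjusted p threshold in 141 cases, stopped passing in 10, came to pass in 1 and reversed in 4. The 46 other genes named did so in 608, 100, 5 and 15, and 5 of 31 listed genes not named also changed sign with 1 sample left out. The cause was not tested. The 647 rows called became 280 with a pseudocount of 5 FPKM, 315 with the replicate block, and 29 to 608 with each sample left out. The 2 members that passed became 1 without a filter, with a minimum mean of 5 FPKM (where ATF3 is not tested) and with the block, and 0 to 3 with each sample left out. The 1 member called became 0 under those 3 settings and with the pseudocount of 5 FPKM, and 0 to 1 with each sample left out (ASNS in place of ATF3 without shCtr replicate 2). The 13 further targets that passed became 2 of 45 tested with the block, where 3.40% of all rows passed against 13.6% otherwise, so the share was near that of all rows, and 0 to 16 with each sample left out; their median stayed between -0.25 and -0.16 under all settings.

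Under the replicate block, a term for replicate number, ASNS passed (adjusted p = 0.0482) and ATF3 did not (0.0557). Of the further targets GDF15 (0.0498) and VLDLR (0.0452) passed. PPP1R15B (0.0978), TRIB2 (0.0604), CHAC2 (0.0686) and HSP90B1 (0.0648) did not. Deviations of same-numbered samples correlated at 0.001, -0.088 and 0.030 across genes. With 3 samples in each group, these values cannot decide whether the samples were paired. Whether genes that stopped passing under the block have weaker effects was not tested.

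Among the genes named, reversed signs were found only for those that did not pass. With quantile normalization the joined row of TRIB3 was at 0.017, SLC7A11 at -0.0045, SLC1A5 at 0.06 and CALR at 0.13. With each sample left out, values ranged from -0.19 to 0.39 for DDIT4, -0.13 to 0.0010 for the joined row of TRIB3, -0.12 to 0.28 for SESN2, -0.098 to 0.048 for JDP2, -0.11 to 0.21 for SLC7A11, -0.040 to 0.065 for SLC1A5, -0.075 to 0.031 for EIF2AK3, -0.14 to 0.019 for DNAJB9, -0.064 to 0.088 for PDIA4 and -0.14 to 0.014 for CALR. The read number behind low members such as CHAC1 and PHGDH is unknown.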
